A study of Mus musculus with 27 samples.

Results

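A set of 10 genes for chemokines and cytokines were followed in mouse mammary tumour cell lines, of 24454 genes in the expression table. These 10 were the neutrophil-attracting chemokines Cxcl1 and Cxcl5, the membrane-anchored chemokine Cxcl16, the monocyte chemokines Ccl2 and Ccl7, the macrophage growth factor Csf1, and the cytokines Il17b, Il1a, Il33 and Tslp. Il17b was chosen from its fall with Wnt3a in these same libraries, so its values are given as a description without a test, and counts of called genes are over the other 9. RNA was sequenced from 9 cell lines grown from thoracic mammary tumours of female MMTV-PyMT mice (FVB/N), in which the mouse mammary tumour virus promoter drives the polyoma middle T oncogene in mammary epithelium. All lines carried a knock-in mutant allele of both Bcl9 and Bcl9L, coactivators of β-catenin. The mutant form was ΔHD1, which lacks binding to Pygopus, or ΔHD2, which lacks binding to β-catenin. The other allele of both genes was either floxed wild type (ΔHD1/fl and ΔHD2/fl, 2 lines each) or deleted by an adenovirus carrying Cre and GFP followed by sorting of GFP-positive cells (ΔHD1/-, 2 lines, and ΔHD2/-, 3 lines). A line without a mutant allele was not analysed here, and the labels describe replicate lines of a genotype as coming from different mice. They give 2 such lines per genotype, so the origin of the 3 ΔHD2/- lines is not fully given, nor is it stated which floxed line each deleted line was made from. Every line was grown with no cytokine, with Wnt3a (100 ng/ml, 3 days) or with TGFβ (2 ng/ml, 4 days), which gave 27 libraries in 12 groups. The labels give the untreated libraries a time point of 4 days, so for Wnt3a the agent and the shorter time cannot be told apart.

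The libraries held 21864011 to 33692360 reads in genes, and 3 reads corresponded to between 0.089 and 0.137 CPM (reads of a gene per 1000000 reads in all genes). Bcl9 was measured at 32.4 to 104 CPM and Bcl9l at 70.7 to 346 CPM, with overlapping ranges in lines with and without the floxed allele. A count per gene cannot tell the alleles apart, so it does not check the genotype. The lines were described as epithelial after removal of fibroblasts by differential trypsinization, but ΔHD1/fl line 2 and ΔHD1/- line 2 stood apart. Without cytokine, both were almost free of Cdh1 (E-cadherin, 0.522 and 0.237 CPM) and of Epcam (0.0746 and 0 CPM), against at least 606 and 263 CPM in the other 7. Other epithelial markers did not all go with these. Krt8 was at 1089 CPM in ΔHD1/- line 2, within the range of the other 7 lines, against 0.336 CPM in ΔHD1/fl line 2, and Krt14 was at 223 and 356 CPM in these lines. Their 7 fibroblast markers summed to 2041 and 5430 CPM, against 1.05 to 217 CPM elsewhere. Of these markers Col1a1, Col1a2, Pdgfra, Pdgfrb and Dcn were highest in these 2 untreated lines, while Lum had no read and Thy1 was at 1.77 CPM in ΔHD2/fl line 1 and at 0 in the other 8. Leukocyte markers summed to 36.2 to 235 CPM in untreated lines, mostly Cd14, and in ΔHD1/- line 2 mostly Csf1r. Of the 12 leukocyte markers, Cd14 (19.2 to 220 CPM) and Cd68 (1.43 to 24.5 CPM) were found in all 27 libraries. Csf1r reached 175 CPM, Lyz2 2.32, Aif1 1.48 and Itgam 1.01 CPM, while Ptprc, Adgre1, Laptm5 and Cd3e stayed at or below 0.463 CPM and Tyrobp and Cd3d were at 0. ΔHD2/- lines 2 and 3 were closer to each other (r = 0.993 to 0.997 over genes) than any other replicate pair (0.807 to 0.957).

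Chemokines are small secreted proteins that guide leukocytes through G-protein-coupled receptors on those cells. CXCL1 and CXCL5 act through CXCR2 on neutrophils, CCL2 through CCR2 on monocytes, and CSF1 through CSF1R sustains macrophages. IL1A, IL33 and TSLP are epithelial cytokines that alert immune cells at barriers, and IL17B is a ligand of the receptor subunit IL17RB. Mammary tumours are known to recruit neutrophils and macrophages by such signals, and TGFβ and NF-κB are known regulators of many of these genes.

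Cxcl1, Cxcl5, Cxcl16 and Csf1 were expressed in all 9 untreated lines at 1 CPM or more. To compare genes, CPM was divided by exon length. The median untreated level was highest for Cxcl1 (47.3 CPM per kb), followed by Cxcl16 (41.8), Cxcl5 (36.1) and Csf1 (25.6). Ccl2 came next at 2.33 CPM per kb, and Ccl7 (0.157), Il1a (0.0636), Il33 (0.0568), Tslp (0.04) and Il17b (0) were close to the limit of detection. The ranges over lines of every pair of neighbours in this order overlapped, and for Cxcl5 the range ran from 1.51 to 254 CPM per kb. Each untreated line expressed 4 to 7 of the 10 genes. ΔHD1/fl line 1 and ΔHD2/- lines 2 and 3 expressed the 4 common genes and no other. In cultures measured in bulk, fewer cells of a type and less RNA per cell cannot be told apart.

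**Figure D1:**
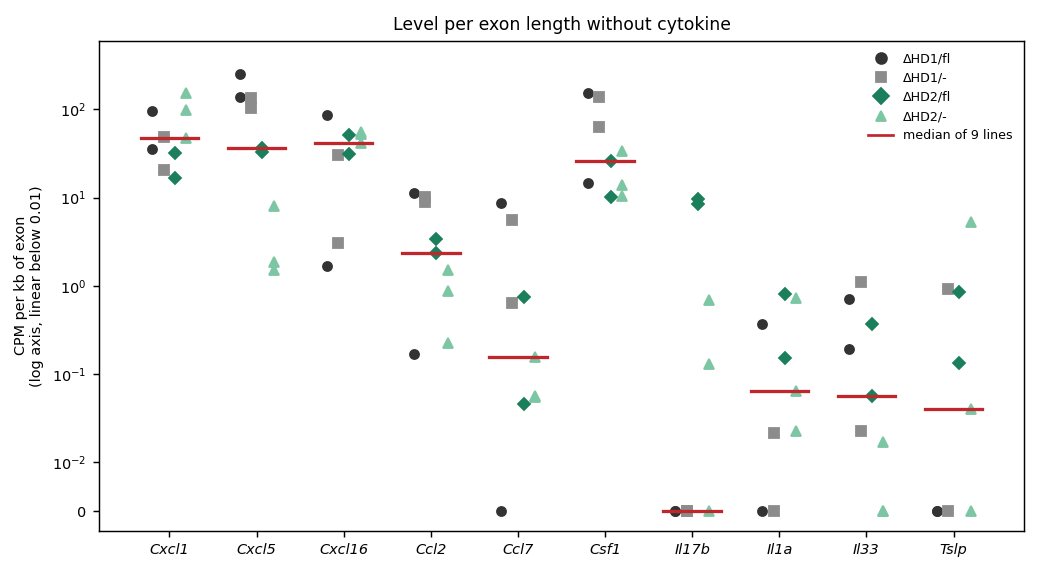
Level of each gene without cytokine in CPM per kb of exon (log axis, linear below 0.01), with a point for each of the 9 cell lines by genotype and a red bar at the median. Cxcl1, Cxcl5, Cxcl16 and Csf1 have medians between 25.6 and 47.3 CPM per kb, while the other 6 genes have medians of 2.33 or less.

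Cxcl1 fell with TGFβ in every line. Untreated Cxcl1 was at 91.0 and 34.3 CPM in ΔHD1/fl lines 1 and 2, 46.1 and 19.6 CPM in the ΔHD1/- lines, 30.8 and 15.8 CPM in the ΔHD2/fl lines, and 45.1, 94.6 and 145 CPM in ΔHD2/- lines 1 to 3. With TGFβ, in the same order, Cxcl1 was at 5.26 and 29.6, 5.52 and 4.79, 6.35 and 2.41, and 5.15, 31.3 and 15.2 CPM. Within a line the level was 1.16-fold to 17.3-fold lower, the smallest change being that of ΔHD1/fl line 2. The other Cdh1-low line, ΔHD1/- line 2, was 4.10-fold lower. The mean TGFβ response over the 4 genotypes was −2.28 ± 0.45 (SE) in log2(CPM + 1), and this was past the threshold (limma, adjusted p = 0.00235).

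Cxcl5, which shares the receptor CXCR2 and lies 129.6 kb from Cxcl1 on chromosome 5, fell as well. Untreated Cxcl5 was at 400 and 219 CPM in the ΔHD1/fl lines, 212 and 163 CPM in the ΔHD1/- lines, 56.8 and 51.6 CPM in the ΔHD2/fl lines, and 12.8, 2.93 and 2.39 CPM in the ΔHD2/- lines. TGFβ brought Cxcl5 to 5.68 and 80.9, 2.03 and 47.7, 1.93 and 1.99, and 0, 0.148 and 0.0417 CPM. The level was lower in 9 of 9 lines. The 2 lines that kept more than 6 CPM under TGFβ were the Cdh1-low ΔHD1/fl line 2 (2.71-fold lower) and ΔHD1/- line 2 (3.42-fold lower). Cdh1 itself was lower with TGFβ in 8 of 9 lines, and in ΔHD1/- line 1 it went from 817 to 4.29 CPM and Epcam from 263 to 12.5 CPM. The part of these markers in the Cxcl5 levels was not tested. In ΔHD1/- line 1 the level was 105-fold lower, in ΔHD1/fl line 1 70.5-fold, and in ΔHD2/- line 1, where no read was left, at least 112-fold against a floor of 3 reads. The mean TGFβ response was −3.56 ± 0.53 in log2(CPM + 1) (limma, adjusted p = 0.000309).

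Cxcl1 and Cxcl5 were thus 2 of the 9 tested genes called under TGFβ, at an adjusted p of at most 0.05 and a change of at least 1 on the log2 scale, and both were lower. Of all 13270 genes tested, 5.42% were called in this comparison (3.56% were called lower), or 8.92% with the cell line as a block. The block kept both genes and added none. TGFβ shifted the median of all genes by −0.163 on this scale. With median-of-ratios scaling in place the shift fell to −0.02 and higher genes made up 50.1% of those called instead of 34.4%, and Cxcl1 and Cxcl5 stayed lower.

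Upstream sequence was at hand for 4 of the genes (Cxcl1, Csf1, Il1a and Il33) in the RefSeq table for GRCm38.p6. It is shown for Cxcl1, which fell with TGFβ, and for Il33, which was below 1 CPM in every TGFβ library, as the 150 bases before the start site, 5′ to 3′ on the strand of the gene. The table holds 2 start sites for Il33, of which the first is shown, and neither had a match to the motifs searched. Capitals mark matches to the NF-κB motif, searched on both strands.
Cxcl1, chr5:90891095-90891244, plus strand: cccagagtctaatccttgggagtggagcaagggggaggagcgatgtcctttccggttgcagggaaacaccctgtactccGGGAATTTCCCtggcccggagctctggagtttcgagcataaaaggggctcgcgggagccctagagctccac
Il33, chr19:29924963-29925112, plus strand: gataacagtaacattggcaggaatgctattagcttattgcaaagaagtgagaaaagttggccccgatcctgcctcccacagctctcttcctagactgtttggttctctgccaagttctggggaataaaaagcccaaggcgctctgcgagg
The Cxcl1 sequence held 2 overlapping NF-κB matches, between positions −71 and −61 from the start, and Csf1 held 1 at −154 to −145. Such a match was present in 7.25% of all 32851 windows of 250 bases upstream of a start. The AP-1 motif TGANTCA matched Il1a at −12 to −6 (6.75% of windows), and the TCF/LEF motif CTTTGAT matched none of these genes (3.21% of windows). A match is a stretch of letters and does not show binding. Cxcl5, Cxcl16, Ccl2 and Ccl7 were not analysed here in this way.

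With Wnt3a the mean changes of the CXCR2 ligands were smaller and lines went both ways, a difference from TGFβ that was not tested. The Wnt3a and TGFβ comparisons share their untreated libraries. Cxcl5 with Wnt3a was at 35.3 and 155 CPM in the ΔHD1/fl lines, 62.9 and 52.6 CPM in the ΔHD1/- lines, 18.9 and 7.26 CPM in the ΔHD2/fl lines, and 3.85, 3.44 and 3.61 CPM in the ΔHD2/- lines. Levels were lower than untreated in 7 of 9 lines, with ΔHD2/- lines 2 and 3 slightly higher. The mean response of Cxcl5 was −1.51 ± 0.53 in log2(CPM + 1), which did not pass the threshold (limma, adjusted p = 0.865). Cxcl1 under Wnt3a ranged from 10.1 to 244 CPM with a median of 30.4 CPM, lower in 6 lines and higher in 3, and its mean response was −0.46 ± 0.45 (limma, adjusted p = 1.0).

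Between genotypes, Cxcl1 and Cxcl5 went in opposite directions in the ΔHD2 lines. In untreated cells Cxcl5 was lower in all 3 ΔHD2/- lines than in both ΔHD2/fl lines, by 3.28 ± 1.01 in log2(CPM + 1), while Cxcl1 was higher, by 1.90 ± 0.85. The Cxcl5 change was −3.92 without ΔHD2/- line 1, and −2.96 with the closely similar ΔHD2/- lines 2 and 3 averaged. Neither passed the threshold (limma, adjusted p = 0.268 for Cxcl5 and 0.545 for Cxcl1), in a comparison where 0.550% of genes were called. Of the 9 tested genes, 0 were called by limma and by edgeR in this comparison, with 2 at an unadjusted p under 0.05 by limma and 3 by edgeR. The ΔHD1/- and ΔHD1/fl lines overlapped in their Cxcl1 levels, and the untreated Cxcl5 levels of the ΔHD1/- lines were below those of the ΔHD1/fl lines by a small margin (212 against 219 CPM at the nearest).

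**Figure D2:**
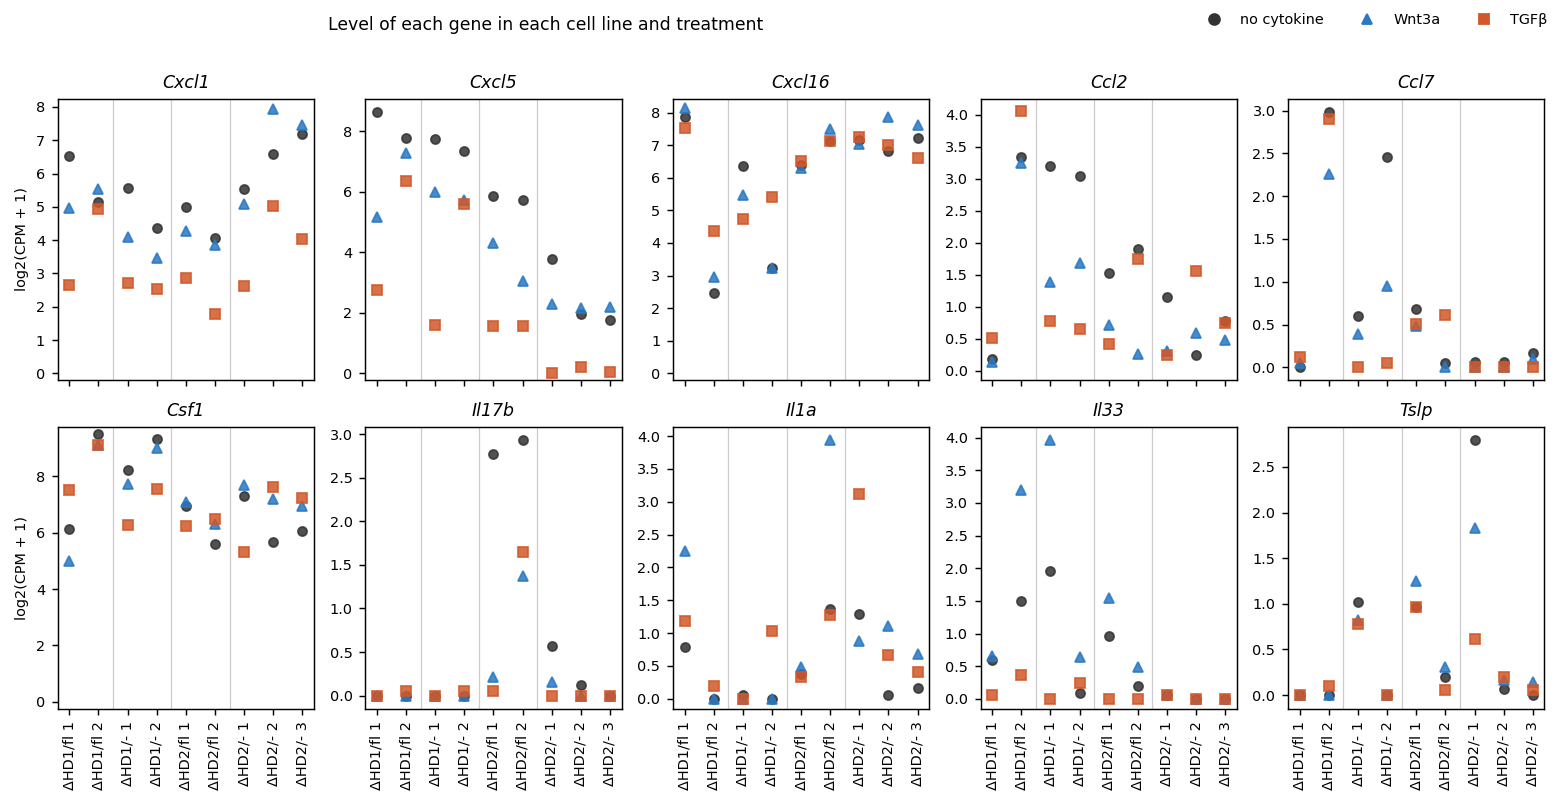
Level of each of the 10 genes as log2(CPM + 1) in each cell line (horizontal axis, grouped by genotype) with no cytokine (circles), Wnt3a (triangles) and TGFβ (squares), with a separate vertical scale per gene. Cxcl1 and Cxcl5 have the TGFβ square as the lowest point in all 9 lines, and Cxcl16 is low in ΔHD1/fl line 2 and ΔHD1/- line 2.

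Cxcl16, a chemokine made as a transmembrane protein and shed by ADAM10 and ADAM17, differed widely between lines and had no mean response past the threshold. Untreated Cxcl16 was at 233 and 4.48 CPM in the ΔHD1/fl lines, 81.4 and 8.34 CPM in the ΔHD1/- lines, 83.4 and 138 CPM in the ΔHD2/fl lines, and 143, 113 and 149 CPM in the ΔHD2/- lines. The 2 low lines were those without Cdh1 and with high fibroblast markers, and the part of these in the level was not tested. With TGFβ these 2 lines were at 19.7 and 41.6 CPM, which was still below 6 of the other 7 lines. These were above the untreated levels of the same lines (4.99-fold in ΔHD1/- line 2), whereas in ΔHD1/- line 1 the level with TGFβ was 3.17-fold lower. The mean response was 0.25 ± 0.75 for TGFβ and 0.13 ± 0.75 for Wnt3a in log2(CPM + 1) (limma, adjusted p = 0.86 and 1.0). Cxcl16 shares 552 exonic bases with Zmynd15 on the opposite strand, and strand use in counting was not stated. Zmynd15 itself was at 0.261 to 11.7 CPM.

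Ccl2 and Ccl7, monocyte attractants whose genes lie 8.3 kb apart on chromosome 11, were highest in lines of the ΔHD1 family, Ccl2 in 3 and Ccl7 in 2 of its 4 lines. Untreated Ccl2 was at 0.137 and 9.10 CPM in the ΔHD1/fl lines, 8.21 and 7.27 CPM in the ΔHD1/- lines, 1.90 and 2.74 CPM in the ΔHD2/fl lines, and 1.22, 0.18 and 0.712 CPM in the ΔHD2/- lines. With Wnt3a, in the same order, Ccl2 was at 0.0951 and 8.52, 1.61 and 2.23, 0.644 and 0.198, and 0.231, 0.498 and 0.394 CPM. The Wnt3a level was below the untreated level in 7 of the 8 lines with more than 3 reads, the exception being ΔHD2/- line 2, and ΔHD1/fl line 1 had 3 reads in both. The mean Wnt3a response of Ccl2 was −0.79 ± 0.51 in log2(CPM + 1) and did not pass the threshold (limma, adjusted p = 1.0).

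With TGFβ, Ccl2 was at 0.42 and 15.7 CPM in the ΔHD1/fl lines, 0.715 and 0.576 CPM in the ΔHD1/- lines, 0.34 and 2.34 CPM in the ΔHD2/fl lines, and 0.189, 1.96 and 0.667 CPM in the ΔHD2/- lines. Both ΔHD1/- lines were lower with TGFβ than without and both ΔHD1/fl lines higher, though in ΔHD1/fl line 1 this was 10 reads against 3. The difference of these responses was −2.93 ± 1.49 and was not called (limma, adjusted p = 1.0). The mean TGFβ response was −0.60 ± 0.51 (limma, adjusted p = 0.447).

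Ccl7 reached 1 CPM in 4 of 27 libraries. Its untreated levels were highest in the Cdh1-low lines, 6.94 CPM for ΔHD1/fl line 2 against 4.48 CPM for ΔHD1/- line 2, and between 0 and 0.603 CPM in the other 7. ΔHD1/fl line 2 kept 6.50 CPM with TGFβ and 3.80 CPM with Wnt3a. ΔHD1/- line 2 was left with 0.036 CPM under TGFβ and 0.931 CPM under Wnt3a. The same lines had the highest fibroblast markers, whose part in these levels was not tested. The mean response of Ccl7 was −0.35 ± 0.42 with either agent, on values of which most lay below the pseudocount of 1 (limma, adjusted p = 0.618 for TGFβ and 1.0 for Wnt3a). In edgeR the TGFβ value was −2.44 (adjusted p = 0.22).

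Csf1 was also highest in the Cdh1-low lines. Untreated Csf1 was at 69.4 and 732 CPM in the ΔHD1/fl lines, 295 and 647 CPM in the ΔHD1/- lines, 121 and 47.5 CPM in the ΔHD2/fl lines, and 158, 49.8 and 65.8 CPM in the ΔHD2/- lines. With TGFβ, Csf1 was at 184 and 553, 75.8 and 185, 74.1 and 89.2, and 38.6, 197 and 150 CPM, higher in 4 lines and lower in 5. Changes within a line ran from 4.09-fold lower in ΔHD2/- line 1 to 3.96-fold higher in ΔHD2/- line 2, so that lines of a genotype went opposite ways. With Wnt3a, Csf1 was at 31.1 and 548 CPM in the ΔHD1/fl lines, 210 and 519 CPM in the ΔHD1/- lines, 135 and 77.6 CPM in the ΔHD2/fl lines, and 207, 145 and 123 CPM in the ΔHD2/- lines. This was lower than untreated in all 4 ΔHD1 lines and higher in all 5 ΔHD2 lines, a difference that was not tested. The mean responses over the 4 genotypes were −0.23 ± 0.56 for TGFβ and 0.05 ± 0.56 for Wnt3a in log2(CPM + 1), neither of them called (limma, adjusted p = 0.826 and 1.0).

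Il17b was confined in these libraries to the ΔHD2 lines, apart from single reads in 2 TGFβ libraries of ΔHD1 lines. Untreated Il17b was at 5.82 and 6.63 CPM in the ΔHD2/fl lines, and at 0.48, 0.0901 and 0 CPM in the ΔHD2/- lines. With Wnt3a it was at 0.161 and 1.59 CPM in the ΔHD2/fl lines and at 0.116, 0 and 0 CPM in the ΔHD2/- lines. With TGFβ it was at 0.0378 and 2.13 CPM in the ΔHD2/fl lines and had no read in the ΔHD2/- lines. In the ΔHD2/fl lines the Wnt3a level was thus 36.1-fold and 4.18-fold lower than the untreated level, as the choice of the gene requires. All libraries at 1 CPM or more, 4 of 27, were from the ΔHD2/fl lines, and without them the gene would not have been tested. Il17b overlaps 141 exonic bases of Gm38165 on the opposite strand.

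Among the epithelial cytokines, Il33 was lower with TGFβ and higher with Wnt3a in most lines with reads, and neither mean response was called. Untreated Il33 was at 0.503 and 1.83 CPM in the ΔHD1/fl lines, 2.87 and 0.0594 CPM in the ΔHD1/- lines, 0.948 and 0.148 CPM in the ΔHD2/fl lines, while the ΔHD2/- lines had 0.0437 CPM or less. With Wnt3a it was at 0.571 and 8.13 CPM in the ΔHD1/fl lines, 14.6 and 0.567 CPM in the ΔHD1/- lines, and 1.93 and 0.397 CPM in the ΔHD2/fl lines, higher than untreated in 6 of 6 lines that had more than 3 reads. In TGFβ libraries Il33 was at most 0.284 CPM, lower than untreated in 5 of those 6 lines. In ΔHD1/- line 1, where no TGFβ read was found, the level was at least 24.1-fold lower. Mean responses were 0.65 ± 0.40 for Wnt3a and −0.58 ± 0.40 for TGFβ in log2(CPM + 1), neither of them called (limma, adjusted p = 1.0 and 0.348). In edgeR on the recovered reads, with no added pseudocount of 1, the TGFβ value was −3.29 and was not called either (adjusted p = 0.0904). Il33 reached 1 CPM in 2 untreated, 3 Wnt3a and 0 TGFβ libraries. It was thus tested only because of groups in which it was higher.

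Il1a, which encodes interleukin-1α, was at 1.59 and 1.44 CPM in untreated ΔHD2/fl line 2 and ΔHD2/- line 1 and at most 0.732 CPM in the other 7 lines. With Wnt3a the highest levels were those of ΔHD2/fl line 2 (14.3 CPM), ΔHD1/fl line 1 (3.74 CPM) and ΔHD2/- line 2 (1.16 CPM), and with TGFβ that of ΔHD2/- line 1 (7.64 CPM). Its mean responses of 0.61 ± 0.47 for Wnt3a and 0.40 ± 0.47 for TGFβ did not pass the threshold (limma, adjusted p = 1.0 and 0.605). In edgeR the TGFβ value was 2.11, also not called (adjusted p = 0.293). Il1a shares 222 exonic bases with Gm14023 on the opposite strand. Tslp was detected mainly in 3 lines, at 5.94 CPM in untreated ΔHD2/- line 1, 1.03 CPM in ΔHD1/- line 1 and 0.948 CPM in ΔHD2/fl line 1, and was at most 0.148 CPM in the other untreated lines. In ΔHD2/- line 1 Tslp was at 2.54 CPM with Wnt3a and 0.53 CPM with TGFβ, 11.2-fold lower than untreated. The other 2 lines stayed between 0.715 and 1.37 CPM. Tslp reached 1 CPM in no TGFβ library, so it was tested only because of untreated and Wnt3a libraries. The mean response of Tslp was −0.20 ± 0.36 for TGFβ and −0.04 ± 0.36 for Wnt3a (limma, adjusted p = 0.75 and 1.0).

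**Figure D3:**
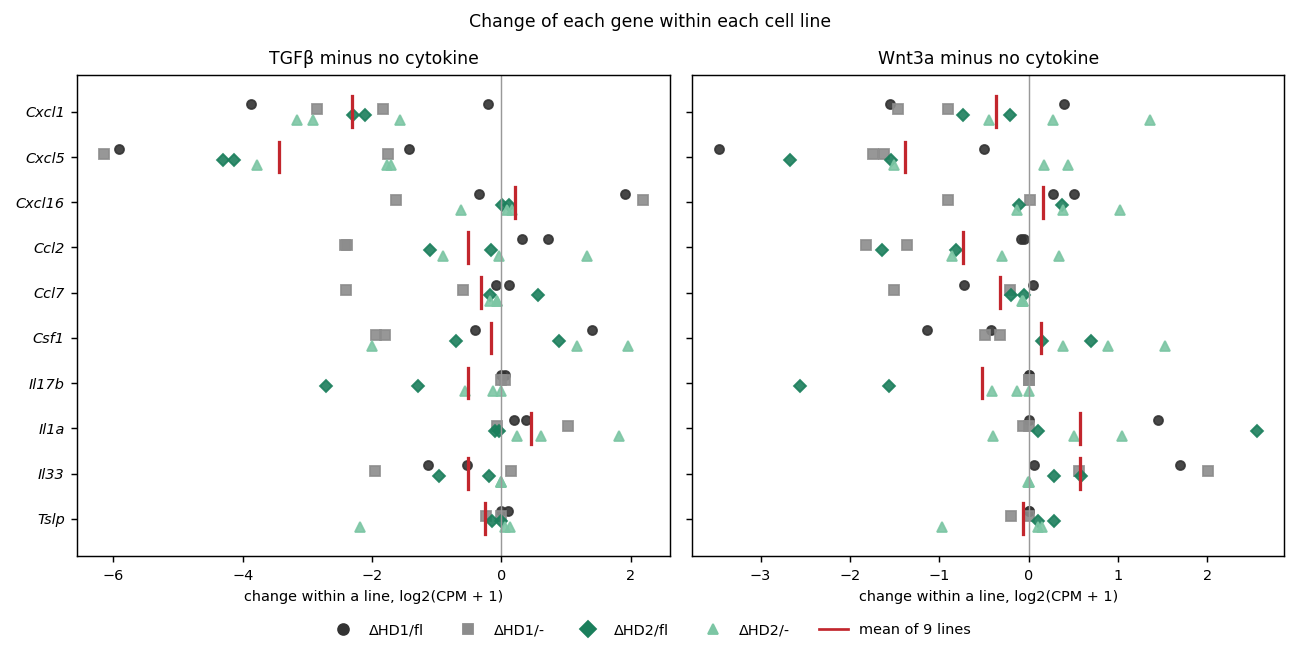
Change of each gene within each cell line in log2(CPM + 1), TGFβ (left) or Wnt3a (right) minus no cytokine, with a point per line by genotype and a red bar at the mean of the 9 lines. With TGFβ all 9 lines lie left of 0 for Cxcl1 and Cxcl5, and for the other genes lines lie on both sides of 0.

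In the remaining comparisons, 0 of the 9 tested genes were called by limma or by edgeR. For the mean Wnt3a response 0.0226% of all genes were called (0.241% with the cell line as a block), and Cxcl5 was the 1 member at an unadjusted p under 0.05 by limma and by edgeR. With the block these were 3 by limma (Ccl2, Ccl7 and Cxcl5) and 2 by edgeR (Ccl2 and Cxcl5). Cxcl5 was called there only in the block fit without ΔHD1/fl line 2 (−1.89, limma, adjusted p = 0.0433). For untreated ΔHD1/- against ΔHD1/fl lines 0.0678% were called, and 0 members were at an unadjusted p under 0.05 by either tool. Without ΔHD1/fl line 2, Ccl2 was called in that comparison (2.94, limma, adjusted p = 0.0134). This leaves 1 ΔHD1/fl line, with 3 Ccl2 reads, which is assumed to vary like the other groups. For the difference of the TGFβ response between ΔHD1/- and ΔHD1/fl lines 0.00754% were called, and for that between ΔHD2/- and ΔHD2/fl lines 0.0301%, again with 0 members at an unadjusted p under 0.05 by limma or by edgeR. With the cell line as a block, 3 members (Ccl2, Ccl7 and Csf1) were at an unadjusted p under 0.05 for the ΔHD1 difference by limma and by edgeR, as was Ccl7 for the ΔHD2 difference by edgeR, and 0 were called. Without ΔHD1/- line 1, the block fit called Ccl7 (−2.42, limma, adjusted p = 0.0219). This leaves 1 ΔHD1/- line, assumed to vary like the other groups, and Ccl7 was tested only because of the 2 Cdh1-low lines of this comparison, which hold its 4 libraries at 1 CPM or more.

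Of 19 receptor genes, most of them for receptors of these ligands, 9 passed the filter on low values. The list also holds Ackr3 and Ackr4, scavenging receptors of other chemokines, and Ackr3 is among the 9. Cxcr1, Ccr2 and the scavenging receptor Ackr1 had no read in any library, and Cxcr2 was at most 0.243 CPM. Of the TSLP receptor subunits, Il7r was at most 0.036 CPM and Crlf2 was at 9.42 to 26.6 CPM. The subunits Il17ra (44.1 to 110 CPM) and Il1rap (7.20 to 66.7 CPM) were also found in every library. Il1rl1, the receptor of IL33, was at 1430 CPM in untreated ΔHD1/- line 2 and 176 CPM in untreated ΔHD1/fl line 2, the lines with high fibroblast markers, and at most 4.29 CPM in the other untreated lines. The part of the fibroblast-marker lines in these levels was not tested. Csf1r, the receptor of CSF1, was at 165 CPM in untreated ΔHD1/- line 2 and at most 3.77 CPM in the others. With TGFβ 1 of the 9 receptor genes was called, against 5.42% of all genes. It was Il17rb, a receptor for IL17B. Il17rb was at 1.79 to 25.1 CPM untreated and 0 to 2.31 CPM with TGFβ, lower in 9 of 9 lines (−2.41 ± 0.45, limma, adjusted p = 0.00163), with values of −4.48 to −2.13 over the alternatives. With the line as a block 4 receptor genes were called, against 8.92% of all genes, Il1rl1 (1.68) and Csf1r (1.49) higher and Il17rb and Il1r1 (−1.11) lower. Il1rl1 and Csf1r were higher in 8 of 9 lines, the exception being ΔHD1/- line 2, where both were highest untreated and were at 446 and 67.6 CPM with TGFβ. The median change of the 9 receptor genes was 0.174, against −0.163 for all genes.

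Of 30 further chemokine genes 12 were tested, and limma called 0 with TGFβ or Wnt3a, also with the line as a block. Of 43 further cytokine genes 19 were tested, of which 1 rose and 2 fell with TGFβ, where 5.42% of all genes were called. Il11, an IL6-family cytokine, rose from 0.119 to 1.63 CPM untreated to 1.79 to 76.2 CPM, higher in 9 of 9 lines (2.53 ± 0.64, limma, adjusted p = 0.0122). Its call was lost without ΔHD1/- line 1 (2.07) or without ΔHD2/fl line 1 (2.04). Il1rn, the antagonist of IL1A at the interleukin-1 receptor, fell from 2.84 to 208 CPM to 0.437 to 12.1 CPM, lower in 9 of 9 lines (−2.84 ± 0.35, limma, adjusted p = 7.04e-05). Kitl, the ligand of the receptor Kit, fell from 12.2 to 58.2 CPM to 1.18 to 10.7 CPM, also in 9 of 9 lines (−2.38 ± 0.36, limma, adjusted p = 0.000345). The block added Csf2 (1.70) and Lif (1.04) as higher. The median over the 19 was −0.205.

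Of 16 genes of the NF-κB pathway and its feedback, 15 were tested and 1 was called with TGFβ, a share close to the 5.42% of all genes. This was Ier3, an immediate early gene, higher in 7 of 9 lines (1.15 ± 0.38, limma, adjusted p = 0.0464), a call that was lost when any 1 of 7 of the lines was left out (0.96 to 1.26). With the block Tnfaip3, the NF-κB inhibitor A20, was called as well (1.47), and the median over the 15 was −0.096. All 8 sheddases and processing enzymes were tested. Furin, a proprotein convertase, rose with TGFβ from 181 to 344 CPM to 415 to 1054 CPM, in 9 of 9 lines (1.19 ± 0.16, limma, adjusted p = 0.000163), and Capn5, a calpain protease, fell in 9 of 9 lines (−2.04 ± 0.44, limma, adjusted p = 0.00429). For Adam10 and Adam17, the sheddases of CXCL16, the responses were 0.15 ± 0.28 and −0.57 ± 0.11, below the limit on size. The median over the 8 was −0.208. No gene of these 5 lists was called by limma with Wnt3a or between genotypes.

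Over the 27 libraries, which include 3 from each line and share line and treatment effects, the gene outside the 10 with the most similar log2(CPM + 1) profile was Ptges2 for Cxcl1 (Pearson r = 0.921), Gstm1 for Cxcl5 (0.885), Atp9a for Cxcl16 (0.946) and Aff3 for Ccl2 (0.836). For the genes with few reads it was Scg5 for Ccl7 (0.953), Sostdc1 for Il17b (0.950), Lgi4 for Il33 (0.932), Kctd12b for Tslp (0.908) and Afap1l1 for Il1a (0.770). The rank correlation was 0.574 for Ccl7 with Scg5, 0.592 for Il33 with Lgi4, 0.689 for Il17b with Sostdc1 and 0.732 for Tslp with Kctd12b. These values of r thus rest on few libraries with high values, and Il17b had at most 3 reads in 21 of 27. The neighbours Ccl2 and Ccl7 had r = 0.858, and Cxcl1 and Cxcl5, although both fell with TGFβ, had r = 0.153.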

How the data were processed

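The authors mapped single-end reads of stranded poly(A) libraries to mm10 with STAR, kept unique hits, counted reads in RefSeq exons, and deposited CPM (reads per 1000000) for 24454 genes. Strand use in counting was not given in the sources used here. Every deposited CPM value was a whole multiple of the value of 1 read (tolerance 0.05 reads), so depth and reads could be recovered. Gene symbols were matched for 24374 of the Entrez identifiers. Gene coordinates came from a RefSeq gene table, and exon lengths and overlaps from the GENCODE annotation of GRCm38. The 13270 genes that reached 1 CPM in 2 or more libraries were fitted with limma 3.58.1 in R 4.3.3 on log2(CPM + 1), so changes of low genes are understated. The fit held all 27 libraries and 12 group means, and mean responses weight the 4 genotypes equally. Calls needed an adjusted p (Benjamini-Hochberg, over all genes) no greater than 0.05 together with a log2 change of 1 or more in size. The self-test on simulated counts was run before the fits. The 9 lines are the replicates. Their numbers pair libraries because the 3 treatments were given to the same line (correlation of deviations 0.509 to 0.94 over 27 pairs), and a line block was tried as an alternative, with edgeR 4.0.16 on recovered reads, another pseudocount, scaling and filter, and single lines left out. Calls with no limit on the size of the change were counted as a further alternative. Intervals from depth cover counting error only.

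All 10 genes were named, with the genes of 5 lists (at most 5 called genes per list) and, for each of the 10, the gene with the highest Pearson r, which for Csf1 is not reported here. A line expresses a gene at 1 CPM or more. The genes and lists were chosen with earlier results of these data known. Il17b was planned as part of the counts under TGFβ and between genotypes and was left out of all of them, because the libraries that chose it enter each comparison.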

Additional observations from a re-analysis of the deposited data

Results flagged for a closer look

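The TGFβ change of Ccl2, a monocyte chemokine, went opposite ways in the lines with and without the floxed allele of the ΔHD1 family. In log2(CPM + 1) it was 0.32 and 0.72 in the ΔHD1/fl lines and −2.43 and −2.39 in the ΔHD1/- lines, a difference of −2.93 between the means. In ΔHD1/fl line 1 the rise was from 3 to 10 reads, below 1 CPM in both. Over the alternatives the difference between the means was −4.52 to −2.73. The difference was tested as an interaction and was not called (limma, adjusted p = 1.0, and 0.224 with the cell line as a block).

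The TGFβ change of Il1a went down in both ΔHD2/fl lines (−0.04 and −0.10) and up in the 3 ΔHD2/- lines (1.82, 0.61 and 0.24), a difference of 0.96 between the means. This was not called either (limma, adjusted p = 1.0, and 0.774 with the block). The ΔHD2/fl changes are near 0, and Il1a was below 2 CPM in all but 1 of these 10 libraries.

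The Wnt3a change of Csf1, the macrophage growth factor, went down in all 4 ΔHD1 lines (−1.14, −0.42, −0.49 and −0.32) and up in all 5 ΔHD2 lines (0.15, 0.70, 0.38, 1.52 and 0.90). The means were −0.59 and 0.73, a difference of 1.32 that was not tested. The values 1.52 and 0.90 are those of ΔHD2/- lines 2 and 3, which were close to each other over all genes.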

How the results depend on the processing

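Under the 27 alternatives run for the mean responses and for the differences of the TGFβ response (16 for the untreated comparisons), Cxcl1 and Cxcl5 stayed lower and called with TGFβ in every one, at −1.83 to −2.74 and −3.00 to −4.42. The count of called members, over 9, was 2 to 3 for TGFβ, the added one being Ccl7 (−2.16, adjusted p = 0.0408) in edgeR with the replicate block, and the block alone left it at 2. For Wnt3a the count was 1 instead of 0 in 1 alternative chosen after seeing the data, the replicate block without ΔHD1/fl line 2, where Cxcl5 was called (−1.89, adjusted p = 0.0433). For untreated ΔHD1/- against ΔHD1/fl lines it was 0 to 1 when 1 line was left out, Ccl2 being called without ΔHD1/fl line 2 (2.94, adjusted p = 0.0134), with a value of 1.37 in all lines and −0.21 without ΔHD1/fl line 1. For the difference of the TGFβ response between ΔHD1/- and ΔHD1/fl lines it was 1 instead of 0 in 1 alternative chosen after seeing the data, the replicate block without ΔHD1/- line 1, where Ccl7 was called (−2.42, adjusted p = 0.0219). This leaves 1 ΔHD1/- line, whose spread is taken from the other groups. It was 0 in all alternatives run for the ΔHD2 comparison and for the ΔHD2 difference of the TGFβ response.

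The other values that changed sign were not called in any fit, and the cause was not tested. Each left-out line gave the same value with and without the block. For TGFβ these were Cxcl16 (−0.005 in edgeR, and −0.228 to 0.727 when 1 line was left out, below 0 without ΔHD1/fl line 2 (−0.035) or ΔHD1/- line 2 (−0.228)), Csf1 (0.027 in edgeR with the block, and −0.451 to 0.072 with 1 line left out, above 0 without ΔHD2/- line 1) and Tslp (0.246 in edgeR with the block). For Wnt3a these were Csf1 (−0.045 to 0.135 with 1 line left out, below 0 at −0.045, −0.023 and −0.029 without ΔHD1/fl line 2, ΔHD2/fl line 2 or ΔHD2/- line 2) and Tslp (0.111 with a pseudocount of 0.1, 0.019 in edgeR with the block, −0.084 to 0.056 with 1 line left out, above 0 without ΔHD2/- line 1). Ier3 also lost its call with no filter (1.15) and with ΔHD2/- lines 2 and 3 averaged (1.23).

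The count over all genes moved from 455 to 2234 for TGFβ (719 as reported, 855 in edgeR on the recovered reads, 1184 with the block), 1 to 217 for Wnt3a (3 and 32), 0 to 225 for the ΔHD1 comparison (9), 4 to 749 for the ΔHD2 comparison (73), and 0 to 290 and 0 to 243 for the ΔHD1 and ΔHD2 differences of the TGFβ response (1 and 4). The count of 2234 came from leaving out the limit on the size of the change. With that limit kept, the highest TGFβ count was 1834, in edgeR with the block. A line block cannot be fitted between genotypes. Pairing the floxed and deleted lines of the same number, an alternative chosen after seeing the data, left 0 members called and moved the all-gene counts to 37 and 156 for the ΔHD1 and ΔHD2 comparisons. The sources used here do not say that these numbers pair lines across genotypes, and the correlation of deviations of same-numbered lines was 0.117 to 0.472 for ΔHD1 and 0.087 to 0.19 for ΔHD2. Values of low genes were larger in edgeR, which adds no pseudocount of 1. For TGFβ, Il33 was at −3.29 instead of −0.58, Ccl7 at −2.44 instead of −0.35, Il1a at 2.11 instead of 0.40 and Il11 at 5.00 instead of 2.53. Ccl7, Il17b and Tslp were below 1 CPM in 23 of 27 libraries, Il33 in 22 and Il1a in 18, so small differences of these genes would not be detectable at this depth.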
